A study of Mus musculus with 45 samples.

Results

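MHC class II antigen presentation was examined through 8 genes, H2-Aa, H2-Ab1, H2-Eb1, H2-DMa, H2-DMb1, Cd74, Ciita and Ctss, out of 39179 Ensembl genes counted in each library. The genes were chosen as the members of a pathway and matched to the count tables by Ensembl identifier, and all 8 were found and passed the detection filter of more than 4 reads in any mouse. Hepatic RNA-Seq had been performed in 45 female C57BL/6 mice, 5 per group, gavaged with sesame oil vehicle or with TCDD at 30, 10, 3, 1, 0.3, 0.1, 0.03 or 0.01 µg/kg (TCDD is 2,3,7,8-tetrachlorodibenzo-p-dioxin, a ligand of the aryl hydrocarbon receptor). Dosing was repeated every 4 days for 28 days from postnatal day 28, and no group carried a genetic change. The labels describe the mice as ovariectomized and the study's methods do not mention this. Each library was made from whole liver, so the RNA is mostly that of hepatocytes and the cell type behind a read is unknown. In such bulk samples more or fewer cells of a type and more or less RNA per cell cannot be told apart.

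MHC class II molecules present peptides from endocytosed proteins to CD4+ T cells. The alpha and beta chains pair in the endoplasmic reticulum with the invariant chain, which blocks the groove, guides the complex to endosomes and is then degraded there, in part by cathepsin S. H2-DM exchanges the remaining invariant chain fragment for peptide, and Ciita is the coactivator that switches the whole gene set on. In liver, dendritic cells, B cells, Kupffer cells and some sinusoidal endothelial cells carry these molecules, and hepatocytes carry little at rest. C57BL/6 mice lack a functional E alpha chain, and the H2-Ea-ps pseudogene had 0 reads in the 45 mice, so H2-Eb1 was measured here without its partner.

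Positions are given on build GRCm38 of the mouse genome from the GENCODE M21 annotation. H2-DMa (ENSMUSG00000037649), H2-DMb1 (ENSMUSG00000079547), H2-Ab1 (ENSMUSG00000073421), H2-Aa (ENSMUSG00000036594) and H2-Eb1 (ENSMUSG00000060586) lie in this order on chromosome 17. The cluster runs from the start of H2-DMa at 34119541 to the end of H2-Eb1 at 34316674, and H2-Aa is the only member there on the minus strand. Cd74 (ENSMUSG00000024610) lies outside this cluster, as do Ciita (ENSMUSG00000022504) on chromosome 16 from 10480059 to 10528418, and Ctss (ENSMUSG00000038642) on chromosome 3 from 95526786 to 95556403. The strand setting of the read counting is not given in the sources used here. Exons of H2-DMa overlap the minus-strand gene Brd2 over 360 bases and exons of Ciita overlap the minus-strand gene Dexi over 329 bases, and reads in such stretches cannot be told apart without strand. H2-DMb1 and H2-DMb2 are near-identical copies, so reads aligning to both would have been lost from either count.

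Class II genes share a compact promoter module whose Y box, bound by the factor NF-Y, has the core GATTGG. The stretches of 140 bases directly before the start site of 3 members are shown to let that element be seen, with the core in capitals on whichever strand it reads. They are RefSeq sequences of build GRCm38.p6, 5′ to 3′ on the strand of the gene, at chr17:34287824-34287963 (minus strand) for H2-Aa, chr17:34305727-34305866 (plus strand) for H2-Eb1 and chr3:95526646-95526785 (plus strand) for Ctss.
H2-Aa: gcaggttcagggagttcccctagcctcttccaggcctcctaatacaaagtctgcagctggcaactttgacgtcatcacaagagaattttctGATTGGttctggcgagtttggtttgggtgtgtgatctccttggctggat
H2-Eb1: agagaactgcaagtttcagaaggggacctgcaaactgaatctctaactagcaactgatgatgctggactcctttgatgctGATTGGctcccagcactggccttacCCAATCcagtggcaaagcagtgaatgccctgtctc
Ctss: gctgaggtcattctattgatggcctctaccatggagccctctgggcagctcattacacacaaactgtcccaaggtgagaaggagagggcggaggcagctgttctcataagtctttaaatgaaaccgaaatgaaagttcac
The core begins 49 bases before the start in H2-Aa and 60 bases before it in H2-Eb1, and another copy on the opposite strand begins 35 bases before the start of H2-Eb1. Promoter windows of 300 bases (250 before the start and 50 after it) were at hand for 5 members, with 2 windows for H2-DMa. GATTGG, searched on both strands, was found in windows of 4 of these 5 members, H2-Aa, H2-Eb1, H2-DMb1 and H2-DMa, and not in that of Ctss. In H2-DMb1 it began 62 bases before the start. The match in H2-DMa began 199 bases before the start, farther out than in H2-Aa, H2-Eb1 and H2-DMb1. Counted by window, 4 of the 6 member windows held the letters. The same letters were found in 16.1% of all 32851 windows. The dioxin response element core GCGTG was found in 32.4% of all windows and the interferon gamma activated site TTCNNNGAA in 8.3%, both strands searched, and neither occurred in the 6 member windows. As GATTGG alone was found, no matches of different motifs overlapped, and a match describes letters only.

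Libraries held 11767284 to 56509899 reads in genes (median 17225047), which put 4 to 82 reads on Ciita, the least covered member, and 191 to 4988 reads on Cd74, the most covered. Values are CPM, a gene's read count relative to the size of its library, with library sizes scaled by the trimmed mean of M values (TMM). The exposure control Cyp1a1, a direct target of the TCDD-activated receptor, ranged from 1.34 to 16.6 CPM in vehicle livers and from 6020 to 9060 CPM at 30 µg/kg. Some libraries stood apart from their groups. The 0.01 µg/kg mouse numbered replicate 5 had 69.7 CPM of Cyp1a1 against 1.18 to 4.54 in its 4 group mates, and 42.8 CPM of the pan-leukocyte gene Ptprc against 7.01 to 11.5. Its mean Spearman correlation with its group mates (0.966) was the lowest of the 45 libraries, against 0.974 to 0.981 in its group mates. By the same measure 0.3 µg/kg replicate 1 (0.9695, group mates 0.976 to 0.981) and 3 µg/kg replicate 1 (0.972, group mates 0.979 to 0.983) also lay below their groups. Counts below were also taken without each of these.

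The class II genes rose with TCDD: 4 of 8 were higher at 1 µg/kg, and all 8 were 2.16-fold to 5.39-fold higher at 3 µg/kg and 2.27-fold to 5.19-fold higher at 30 µg/kg. Of the 8 members, 0 were higher than vehicle at the 4 lowest doses, and the counts for the 4 highest (1, 3, 10 and 30 µg/kg) were 4, 8, 7 and 8, at an adjusted p under 0.05 (edgeR quasi-likelihood test, Benjamini-Hochberg adjustment over 17464 genes). Among all genes tested the share called higher was 0.0% at 0.01 µg/kg, 0.0344% at 0.03, 0.0229% at 0.1, 0.321% at 0.3, 1.24% at 1, 4.34% at 3, 8.47% at 10 and 15.5% at 30 µg/kg. The share called lower was 0.515% at 1, 3.2% at 3, 7.47% at 10 and 14.1% at 30 µg/kg, and 0 members were lower. All 8 members were called in the test over any dose, against 28.8% of all genes. At 30 µg/kg the median log2 fold change of the 8 members was 2.12 against 0.02 over all genes tested. Scaling by raw totals in place of TMM would move that median of all genes to 0.23.

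At the 4 lowest doses the medians of the members' log2 fold changes lay between 0.13 (0.03 µg/kg) and 0.72 (0.3 µg/kg). The count of 0 at these doses was also that of DESeq2. At an unadjusted p under 0.05 in edgeR the count was 0 of 8 members at 0.01, 0.03 and 0.1 µg/kg and 2 of 8 at 0.3 µg/kg, H2-Eb1 and H2-DMa. Over all genes the share under that threshold was 10.1%, 11.7%, 5.15% and 10.5% at these doses in rising order. The standard error on a member's log2 fold change was 0.33 to 0.50 at these doses, which limits how small a change could be detected with 5 mice a group.

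**Figure D1:**
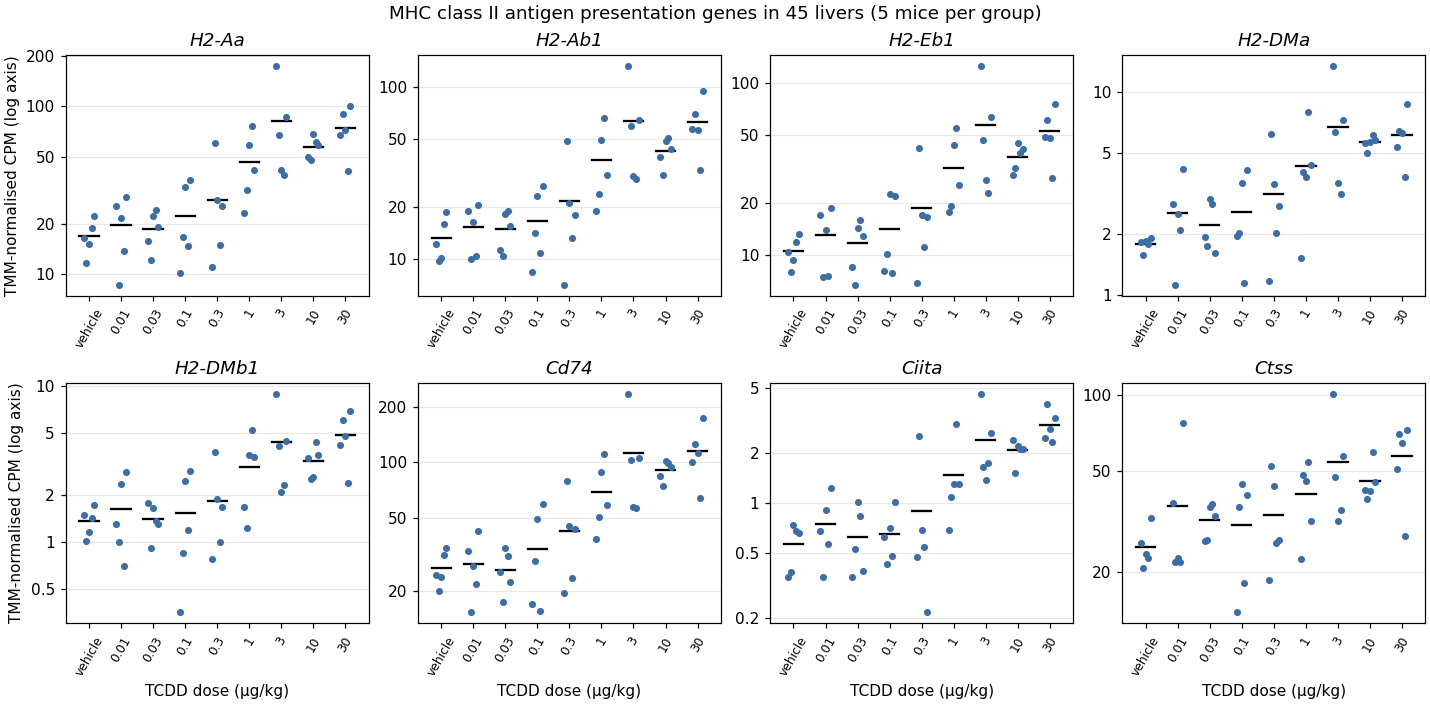
Each point is 1 liver, placed by TCDD dose in µg/kg on the x axis and by TMM-normalised CPM on a log y axis, with the group mean of 5 mice as a bar. The 4 lowest doses mix with vehicle in all 8 panels, and at 30 µg/kg every mouse is above every vehicle mouse except for Ctss, where 1 mouse at 27.8 CPM falls below the highest vehicle mouse.

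The chains that form the class II molecule itself were among the genes called from 1 µg/kg upward. H2-Aa encodes the A alpha chain. Its CPM in the 5 vehicle livers was 16.4, 11.6, 15.2, 18.9 and 22.2. At 1 µg/kg the values were 23.1, 31.8, 59.1, 76.6 and 41.6, and at 3 µg/kg they were 174, 67.6, 41.7, 38.7 and 86.8. Every mouse of both dose groups was above every vehicle mouse. At 10 µg/kg the 5 livers gave 49.6, 48, 68.3, 61.6 and 58.9 CPM, the tightest of the higher dose groups, and at 30 µg/kg 67.5, 89.5, 72.3, 41.2 and 101 CPM. The log2 fold change was 1.46 ± 0.39 (SE) at 1 µg/kg, 2.27 ± 0.40 at 3, 1.76 ± 0.40 at 10 and 2.13 ± 0.40 at 30 µg/kg, with edgeR adjusted p = 0.0397, 0.000123, 0.00131 and 5.67e-05.

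H2-Ab1 encodes the A beta chain that pairs with H2-Aa. Vehicle livers had 12.1, 9.66, 10.1, 15.9 and 18.6 CPM, and livers at 30 µg/kg had 57.1, 69.8, 56.6, 32.7 and 95.4 CPM. The groups did not overlap, and the change was 4.67-fold (log2 2.22 ± 0.40, edgeR adjusted p = 3.56e-05). The read ratio of H2-Aa to H2-Ab1 within a liver was 1.29 ± 0.14 (SD, n = 5) in vehicle and 1.21 ± 0.0964 at 30 µg/kg, so the pair moved together to within the spread between mice. H2-Eb1, the E beta chain, had 10.3, 7.95, 9.24, 11.8 and 13.2 CPM in vehicle and 48.7, 61.0, 48.1, 28.0 and 75.8 CPM at 30 µg/kg. Its 4.95-fold change (log2 2.31 ± 0.42, edgeR adjusted p = 3.85e-05) came with a ratio to H2-Ab1 of 0.809 ± 0.0829 in vehicle and 0.845 ± 0.0297 at 30 µg/kg.

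Cd74, the invariant chain, was the most abundant member in reads. Vehicle livers had 24.2, 20.0, 23.7, 31.3 and 34.0 CPM and 30 µg/kg livers 100, 125, 112, 64.1 and 175 CPM, with no overlap. The change was 4.33-fold (log2 2.11 ± 0.38, edgeR adjusted p = 2.84e-05), and at 1 µg/kg Cd74 was already called at log2 1.38 ± 0.37 (edgeR adjusted p = 0.0386). The 4 members called at 1 µg/kg were H2-Aa, H2-Ab1, H2-Eb1 and Cd74, and these were also the 4 whose 1 µg/kg mice all exceeded every vehicle mouse, an arrangement seen in 2.74% of all genes. H2-DMa, H2-DMb1, Ciita and Ctss had log2 fold changes of 1.28, 1.13, 1.36 and 0.69 there, with edgeR adjusted p of 0.086, 0.23, 0.126 and 0.372. Whether these 4 respond at a higher dose than the chains was not tested. The calls at 1 µg/kg changed with single mice. Without the 1 µg/kg mouse numbered replicate 3 or 4, or without any of vehicle replicates 1 to 4, the count fell to 0 of 8, and without vehicle replicate 5 or 1 µg/kg replicate 5 it fell to 2.

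**Figure D2:**
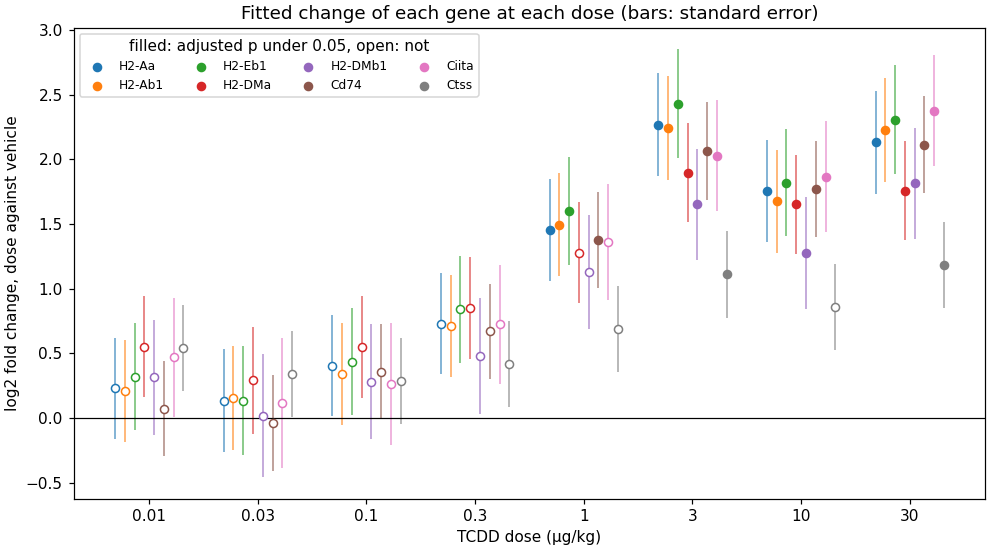
Points give the fitted log2 fold change of each member against vehicle at each TCDD dose in µg/kg, with bars for the standard error, filled where the adjusted p was under 0.05. Filled points start at 1 µg/kg with 4 genes, the values at 3 and 30 µg/kg differ by at most 0.35, and Ctss is the lowest point at 1 µg/kg and above.

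The peptide loading genes H2-DMa and H2-DMb1 encode the chains of the H2-DM exchanger. H2-DMa was low and even in vehicle, at 1.84, 1.59, 1.85, 1.79 and 1.92 CPM, and higher at 30 µg/kg, at 5.36, 6.47, 6.29, 3.84 and 8.74 CPM (3.38-fold, log2 1.76 ± 0.39, edgeR adjusted p = 0.000459). H2-DMb1 had 1.49, 1.02, 1.17, 1.42 and 1.72 CPM in vehicle and 4.19, 6.01, 4.81, 2.40 and 6.89 CPM at 30 µg/kg (3.52-fold, log2 1.81 ± 0.43, edgeR adjusted p = 0.00117). Neither gene's groups overlapped. Beside this, H2-DMb1 at 10 µg/kg passed narrowly (log2 1.28 ± 0.43, edgeR adjusted p = 0.0363), and leaving out single vehicle or 10 µg/kg mice took the adjusted p to as much as 0.0873.

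Ciita, the master coactivator of class II transcription, was the scarcest member. Vehicle livers had 0.354, 0.382, 0.74, 0.681 and 0.657 CPM, from as few as 5 reads, and 30 µg/kg livers had 2.48, 4.01, 2.83, 2.34 and 3.29 CPM. The groups did not overlap, and the change of 5.19-fold (log2 2.38 ± 0.43, edgeR adjusted p = 3.29e-05) was the largest estimate among the members at this dose, within 1 SE of those of the chains. At 3 µg/kg Ciita had 4.60, 1.66, 1.37, 1.74 and 2.64 CPM and at 10 µg/kg 2.40, 1.53, 2.22, 2.13 and 2.14 CPM, all above the vehicle mice.

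Ctss, the cathepsin that trims the invariant chain, had the smallest fold change of the 8 at 30 µg/kg. Vehicle livers had 26.0, 20.7, 23.5, 22.7 and 32.7 CPM and 30 µg/kg livers 50.9, 70.1, 64.3, 27.8 and 72.7 CPM, so 1 treated mouse lay among the vehicle values. The change was 2.27-fold (log2 1.18 ± 0.34, edgeR adjusted p = 0.00612), and at 10 µg/kg it did not pass (log2 0.86 ± 0.33, edgeR adjusted p = 0.0741). Without the 0.01 µg/kg mouse that stood apart, which had 77.7 CPM of Ctss against 21.9 to 37.3 in its group mates, Ctss passed at 10 µg/kg too (adjusted p = 0.0419). The ratio of Ctss to H2-Ab1 reads within a liver was 1.96 ± 0.364 in vehicle, 0.937 ± 0.183 at 3 µg/kg and 0.928 ± 0.145 at 30 µg/kg. Its range was 1.43 to 2.33 in vehicle and 0.762 to 1.14 at 30 µg/kg, without overlap, so the protease and the chain gene changed unequally.

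Taken 1 gene at a time, an exact two-sided permutation test of mean log2 CPM between 30 µg/kg and vehicle gave p = 0.00794 for H2-Aa, H2-Ab1, H2-Eb1, H2-DMa, H2-DMb1, Cd74 and Ciita, the smallest that 5 against 5 mice allow, and p = 0.0159 for Ctss. All 5 mice were above every vehicle mouse in 7, 8 and 7 of the 8 members at 3, 10 and 30 µg/kg. Over all genes tested this arrangement was found in 4.6%, 8.1% and 10.3%.

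Divided by exon length, the levels in vehicle livers ordered the genes as Ctss (18.5 ± 3.41 CPM per kb, mean ± SD, n = 5), Cd74 (15.8 ± 3.45), H2-Eb1 (5.41 ± 1.07), H2-Ab1 (5.17 ± 1.51), H2-Aa (4.45 ± 1.05), H2-DMb1 (0.811 ± 0.163), H2-DMa (0.522 ± 0.0363) and Ciita (0.059 ± 0.019). The SD ranges of Ctss and Cd74 overlapped, as did those of the 3 chains, while the other neighbours in this order stood further apart than their SDs. The length used was that of all annotated exons of a gene joined, and the order depends on it. In undivided CPM, H2-DMa (1.80) was above H2-DMb1 (1.36) in vehicle, and H2-Aa (16.9) was above H2-Eb1 (10.5). At 30 µg/kg the order began with Cd74 (68.7 ± 24 CPM per kb) ahead of Ctss (42.1 ± 13.6), whose SD ranges overlapped, and went on with H2-Eb1 (26.9 ± 9.09), H2-Ab1 (24.3 ± 8.9), H2-Aa (19.5 ± 6.0), H2-DMb1 (2.89 ± 1.03), H2-DMa (1.78 ± 0.518) and Ciita (0.313 ± 0.0709). The invariant chain stood above the chains it escorts at both ends of the dose range, and the coactivator stood lowest.

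Between neighbouring doses, 0 members were called at any of the 7 steps by edgeR or by DESeq2. The share of all genes called in either direction was 0.0% from 0.01 to 0.03 µg/kg, 0.0115% from 0.03 to 0.1, 0.0458% from 0.1 to 0.3, 0.115% from 0.3 to 1, 0.178% from 1 to 3, 0.784% from 3 to 10 and 0.613% from 10 to 30 µg/kg. At an unadjusted p under 0.05 in edgeR, 1 member (H2-Ab1) passed from 0.3 to 1 µg/kg, 2 members (H2-Aa and H2-Eb1) passed from 1 to 3 µg/kg, and 0 passed at the other 5 steps. The share of all genes under that threshold was 5.75% from 0.3 to 1 µg/kg and 7.11% from 1 to 3 µg/kg, and at the other 5 steps, from the lowest doses up, it was 5.0%, 5.61%, 5.77%, 9.68% and 7.56%. The medians of the members' log2 differences were 0.68 from 0.3 to 1 µg/kg and 0.68 from 1 to 3 µg/kg. They were -0.33 from 3 to 10 µg/kg and 0.43 from 10 to 30 µg/kg, so the lower means at 10 µg/kg were within the spread.

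Over the wider span from 3 to 30 µg/kg, 8.64% of all genes were called in either direction by edgeR, and 0 of the 8 members were, with 0 at an unadjusted p under 0.05 against 21.1% of all genes. The members' log2 differences between these doses ran from -0.14 ± 0.38 (H2-Aa) to 0.35 ± 0.36 (Ciita), with a median of 0.01. From 1 to 10 µg/kg the median was 0.26 and 0 members were called, against 4.9% of all genes, with 0 at an unadjusted p under 0.05, against 17.4%. Both of these comparisons were chosen after the values were seen. A p that misses the threshold does not show equal levels, and the standard errors give the room left for a difference.

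The spread between mice of 1 dose was shared by the members. At 3 µg/kg the mouse numbered replicate 1 was the highest for all 8 genes, with Cd74 at 236 CPM against 56.6 to 105 in its group mates. At 30 µg/kg the mouse numbered replicate 4 was the lowest for all 8, with H2-Aa at 41.2 CPM against 67.5 to 101. At 0.3 µg/kg replicate 2 and at 1 µg/kg replicate 4 were the highest for all 8. Without 3 µg/kg replicate 1 the count of members higher at 3 µg/kg was 6 of 8, H2-DMb1 (adjusted p = 0.0688) and Ctss (adjusted p = 0.173) being lost, and H2-Aa was at log2 1.79 (edgeR adjusted p = 0.00179).

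**Figure D3:**
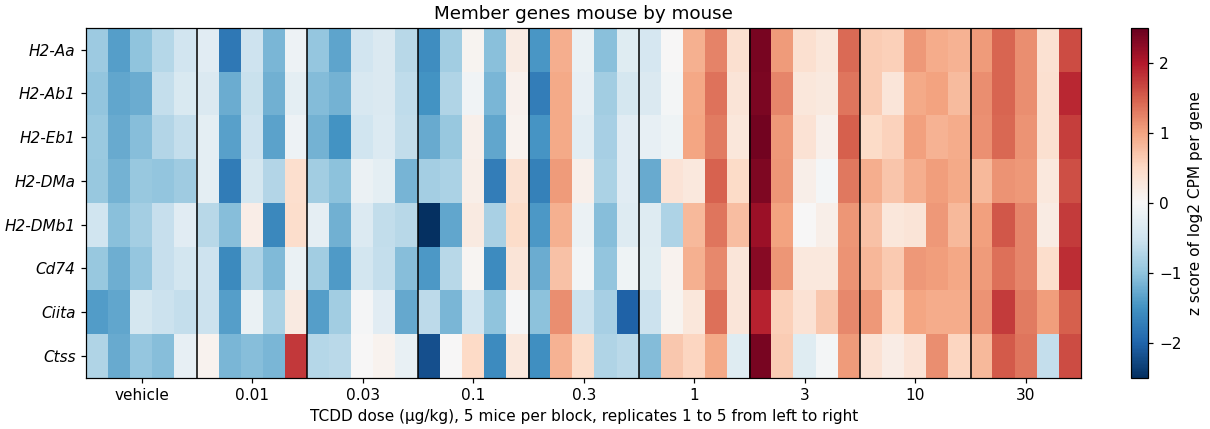
Rows are the 8 member genes and columns the 45 livers in blocks of 5 by TCDD dose in µg/kg, coloured by the z score of log2 CPM of each gene over all mice. Columns tend to take 1 colour from top to bottom: the darkest red column is 3 µg/kg replicate 1, and 0.01 µg/kg replicate 5 is red mainly in Ctss.

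After subtracting each group's mean log2 CPM, Pearson's r between members over the 45 mice ran from 0.632 to 0.977 in the 28 pairs, with a median of 0.862. The 6 pairs among H2-Aa, H2-Ab1, H2-Eb1 and Cd74 had r from 0.954 to 0.977. Ciita was the loosest, from 0.632 with Ctss to 0.782 with H2-DMa. Pairs of Ctss with the members other than Ciita ran from 0.76 to 0.863. These values describe genes read from the same libraries, which share depth and cell makeup.

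The same mice also differed in leukocyte RNA. Ptprc was 32.2 CPM in 3 µg/kg replicate 1 against 14.0 to 22.8 in its group mates, and 12.5 CPM in 30 µg/kg replicate 4 against 22.7 to 26.3. The summed macrophage and Kupffer cell markers were 776 CPM in 3 µg/kg replicate 1 and 175 CPM in 30 µg/kg replicate 4, the highest and lowest of their groups. The 0.01 µg/kg mouse that stood apart had the highest macrophage sum of the 45 livers (1200 CPM, against 191 to 313 in vehicle). Its H2-Aa was 28.7 CPM, above every vehicle mouse (11.6 to 22.2 CPM) and below the 41.2 CPM of the lowest 30 µg/kg mouse. The part of leukocyte number in the class II values was not tested.

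Set against Ptprc in the same liver, 7 of the 8 members were higher at 30 µg/kg than in vehicle at p under 0.05 in an exact permutation test, as were 1.81% of all genes. All 5 treated mice were above every vehicle mouse in 6 of the 8 members and in 1.17% of all genes. Because Ptprc itself was higher at 30 µg/kg, the ratio of a gene at an even level falls. The log2 ratio of H2-Aa reads to Ptprc reads was 0.87 ± 0.25 (SD, n = 5) in vehicle and 1.74 ± 0.27 at 30 µg/kg, with 5 of 5 treated mice above every vehicle mouse. The difference was 0.86 for H2-Aa, 0.95 for H2-Ab1, 1.02 for H2-Eb1, 0.83 for Cd74, 0.51 for H2-DMb1 and 1.14 for Ciita, each with exact two-sided permutation p = 0.00794 and 5 of 5 mice above vehicle. H2-DMa differed by 0.47 (exact permutation p = 0.0476, 2 of 5 mice above every vehicle mouse), and that call was lost when single mice were left out. Ctss differed by -0.12 (exact permutation p = 0.413, 0 of 5 mice above). These are 8 raw p-values. Against Csf1r, the macrophage growth factor receptor, the 7 differences ran from 0.62 to 1.29, and against the summed macrophage markers from 1.11 to 1.84, each with p = 0.00794 in the same exact permutation test. The shares of all genes higher at p under 0.05 were 2.42% against Csf1r and 4.62% against the macrophage sum, the latter over 14876 genes with reads in all 10 mice. For Ctss the sign depended on the reference, at 0.035 (exact permutation p = 0.825) against Csf1r and 0.51 (exact permutation p = 0.00794) against the macrophage sum.

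**Figure D4:**
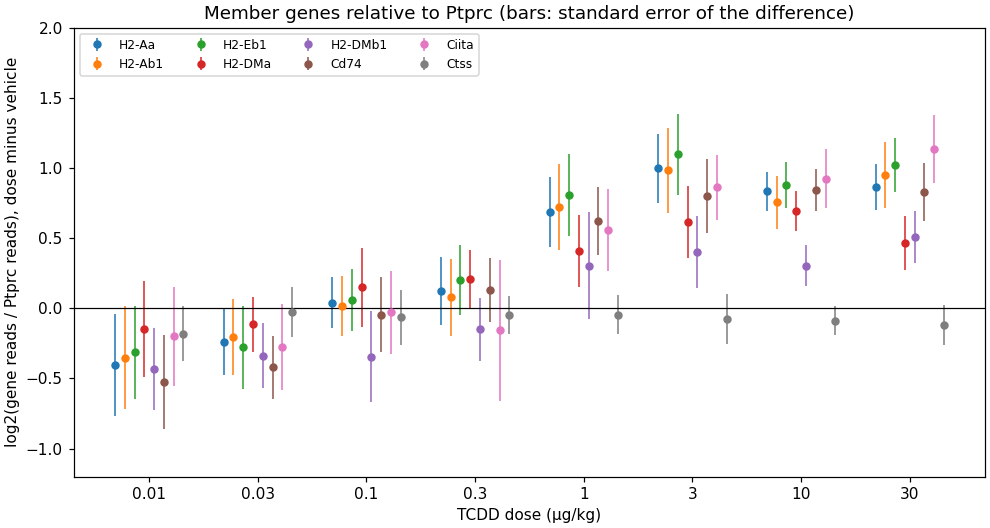
The y axis is the log2 ratio of each member's reads to Ptprc reads, dose minus vehicle, and the x axis the TCDD dose in µg/kg, with points for the mean of 5 mice and bars for the standard error of the difference. From 1 µg/kg upward the points of 7 genes sit above 0, and Ctss stays at 0 within its bar. The bar of H2-DMb1 at 1 µg/kg also crosses 0.

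Marker genes of the cells that carry class II were unevenly higher at 30 µg/kg. Ptprc itself was 9.27 ± 2.42 CPM in vehicle and 22 ± 5.57 CPM at 30 µg/kg (log2 1.25 ± 0.33, edgeR adjusted p = 0.00325). Of 9 dendritic cell markers tested, 5 were higher and 0 lower, with a list median of 1.15. The called were led by Itgax (log2 2.42, edgeR adjusted p = 1.41e-05), Ccr7 (2.11, 0.000201), Xcr1 (1.97, 0.00138) and Flt3 (1.90, 0.000342). The other 4 ran from -0.05 to 0.75 without passing. Among these was the most abundant of the list, Zbtb46, at 8.09 ± 1.33 CPM in vehicle and 7.82 ± 0.898 CPM at 30 µg/kg. The summed level of the 9 markers was 10.7 to 16.6 CPM in vehicle and 16.3 to 22.2 CPM at 30 µg/kg, and Xcr1 was at 0 reads in 1 vehicle mouse. Of 6 B cell markers, 2 were higher, Ms4a1 (log2 1.74) and the immunoglobulin heavy chain gene Ighm (1.22). The other 4 ran from 0.34 to 1.10 without passing. Their summed level with the called 2 was 4.5 to 6.93 CPM in vehicle and 11.4 to 14.3 CPM at 30 µg/kg. Most of this sum was Ighm, at 3.74 ± 0.996 CPM in vehicle and 8.74 ± 1.09 CPM at 30 µg/kg. The part of these cells in the class II values was not tested.

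Of 10 macrophage and Kupffer cell markers, 3 were higher, Csf1r (log2 1.16), Cd68 (1.08) and the complement gene C1qa (0.87). The other 7 ran from 0.38 to 1.84 without passing, and the sum overlapped between vehicle (191 to 313 CPM) and 30 µg/kg (175 to 515 CPM). Of 4 monocyte markers 3 were higher, led by Cx3cr1 (log2 1.90), with sums of 2.54 to 4.25 and 6.18 to 11 CPM. Of 6 T cell markers 1 was higher, Cd8a (log2 1.61), with sums of 1.78 to 3.49 CPM in vehicle and 2.67 to 5.95 CPM at 30 µg/kg. Of 3 NK cell markers 1 was higher (Ncr1, log2 1.43), and of 3 neutrophil markers 2 were higher (S100a9, 2.84, and S100a8, 2.33), while the defining neutrophil gene Ly6g had 1 read in all 45 mice and was not tested. Of 4 endothelial markers 2 were higher (Pecam1, 0.99, and the sinusoidal lectin Clec4g, 0.63), and of 4 stellate cell markers 2 were higher (the collagen gene Col1a1, 2.41, and Dcn, 0.48). None of 4 cholangiocyte markers was called in either direction by edgeR. The hepatocyte genes Apoa1 (-1.67) and Ttr (-0.34, not called with raw totals) were lower among 4, and albumin was 111000 ± 12400 CPM in vehicle, which places the tissue as liver.

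**Figure D5:**
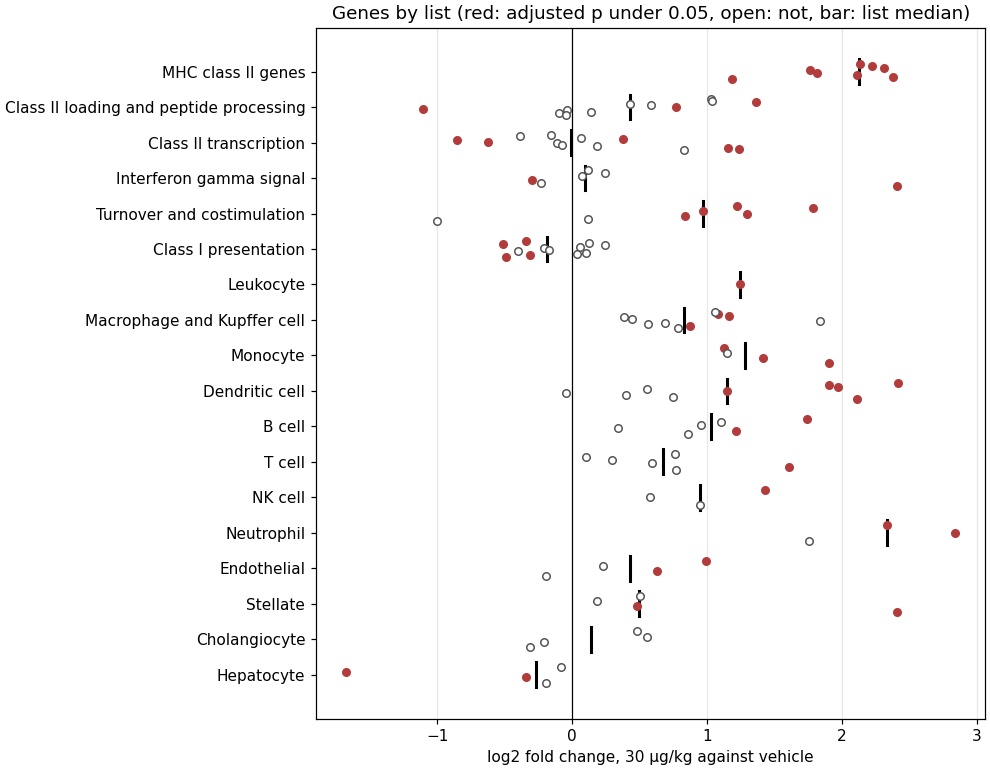
Each point is 1 gene, placed by its log2 fold change at 30 µg/kg against vehicle on the x axis and by gene list on the y axis, red where the adjusted p was under 0.05, with the list median as a bar. The class II genes have all 8 points red and a median of 2.12, the class I genes lie around 0, and the dendritic cell and B cell lists split into red and open points.

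Other genes of class II loading and peptide processing did not move as a block. Of 11 measured, 2 were higher and 1 lower at 30 µg/kg, with a median log2 fold change of 0.43. H2-Ob, a chain of the H2-O protein that restrains H2-DM, was 0.898 ± 0.271 CPM in vehicle and 2.33 ± 1.06 CPM at 30 µg/kg (log2 1.36 ± 0.40, edgeR adjusted p = 0.00746). Its partner H2-Oa had only 175 reads in all 45 mice and a log2 value of 1.04 ± 0.69 (adjusted p = 0.269). The endosomal protease Lgmn was higher (log2 0.77, adjusted p = 0.00713), and Ctsl, a cathepsin that can process the invariant chain in other cells, fell by 1.11 on the log2 scale (adjusted p = 3.23e-11), from 696 ± 48.4 to 323 ± 41.1 CPM.

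Genes of class II transcription showed no common direction. Of 12 measured, 3 were higher and 2 lower at 30 µg/kg, with a median log2 fold change of -0.01. Irf8 (log2 1.24 ± 0.24, adjusted p = 0.000117) and Spi1 (1.16 ± 0.38, adjusted p = 0.0178), factors of myeloid and dendritic cells that are not part of the complex recruiting Ciita, were higher by edgeR. The subunit genes of NF-Y, which binds the Y box shown above, were the other 3 called and differed in direction. Nfya was higher (0.38 ± 0.12, edgeR adjusted p = 0.0127), while Nfyb (-0.85 ± 0.13, adjusted p = 2.8e-06) and Nfyc (-0.62 ± 0.16, adjusted p = 0.00203) were lower. The X box factor gene Rfx5 was 15.6 ± 1.07 CPM in vehicle and 14.0 ± 1.93 CPM at 30 µg/kg (log2 -0.16 ± 0.18, adjusted p = 0.547).

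Interferon gamma is the classical inducer of Ciita. Its gene Ifng had 52 reads in all 45 mice, too few to follow, and was at 0 or 1 read in all 5 vehicle mice. Among 6 genes of the interferon gamma signal, 1 was higher at 30 µg/kg, the feedback inhibitor Socs1 (log2 2.41 ± 0.73, edgeR adjusted p = 0.0105, from 260 reads in all mice), and 1 was lower, the kinase gene Jak1 (-0.29, adjusted p = 0.00266, lost with raw totals at 0.509). Socs1 was 0.14 ± 0.118 CPM in vehicle and 0.799 ± 0.774 CPM at 30 µg/kg, an SD near the mean. It was not called at 3 or 10 µg/kg (edgeR adjusted p = 0.351 and 0.353). The list median at 30 µg/kg was 0.09.

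Costimulation and turnover genes were mostly higher. Of 7 measured, 5 were higher and 0 lower at 30 µg/kg (median 0.97), among them the T cell costimulators Cd80 (log2 1.79, edgeR adjusted p = 0.0179) and Cd86 (0.97, 0.0316), their regulator Cd40 (1.29, 0.0327), and March1 (1.22, 0.00909), the ubiquitin ligase that removes class II from the surface. The other 2 did not pass at 30 µg/kg and differed in direction. Cd83 was little changed (log2 0.11, edgeR adjusted p = 0.878). Lag3 had a lower mean, at 0.807 ± 0.242 CPM in vehicle and 0.402 ± 0.0402 CPM at 30 µg/kg (edgeR adjusted p = 0.0555). At 3 µg/kg 1 of 7 was called.

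Class I presentation loads cytosolic peptides in nearly all cells. Of 12 genes, 0 were higher and 4 lower at 30 µg/kg, with a median log2 fold change of -0.19. The light chain gene B2m fell from 1780 ± 297 to 1250 ± 142 CPM (log2 -0.51 ± 0.13, edgeR adjusted p = 0.00183), and H2-K1 (-0.34, 0.0152), Calr (-0.49, 0.0308) and Erap1 (-0.31, 0.0351) were lower as well. With raw totals in place of TMM, a scaling tried after the data were seen, 0 of 12 were lower or higher and the median was 0.03, while all 8 class II members stayed higher. At 3 µg/kg, where 8 of 8 class II members were higher, 1 class I gene was higher and 0 were lower.

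The genes whose profile was most like the class II genes were ranked by Pearson's r over the 45 mice with the mean z score of the 8 members, among 12404 genes with a mean of 1 CPM or more. The 10 closest were a gene listed as ENSMUSG00000028269 that the reference tables did not pair with a symbol (r = 0.95), Irf8 (0.935), Coro1a (0.917), Clec7a (0.91), Gbp4 (0.909), Tifab (0.909), Ctla2b (0.909), Gbp2b (0.908), Hk3 (0.908) and Fcgr4 (0.907). The members themselves had r from 0.896 (Ctss) to 0.991 (H2-Aa) with their own mean. Clec7a, a fungal glucan receptor of myeloid cells, went from 4.33 CPM in vehicle to 18.2 CPM at 30 µg/kg, and Gbp4, a guanylate-binding protein gene, from 6.58 to 17.4 CPM. By deviations from the group means alone, 4 of these 10 stayed among the 10 closest, and Mpeg1, a macrophage gene, came first (r = 0.888). All points share libraries and the same doses, so the values describe the profiles only.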

How the data were processed

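Hepatic total RNA from 45 mice was sequenced as unpaired short reads. The authors trimmed reads, aligned them to GRCm38 (Ensembl release 74 in the study's methods) with TopHat 1.4.1 and counted reads per gene with HTSeq 0.6.1 (submitters' processing notes also list FastQC 0.11.2, SAMtools 0.1.19 and DESeq), and deposited the values as raw read counts. The strand setting is not given in the sources used here, and each file holds 1 mouse. Lines naming no gene were left out: 9.11 to 17.08% of a library's uniquely aligned reads fell outside genes and 1.34 to 2.07% were ambiguous, and alignments to more than 1 place, 36.72 to 55.15% of all lines summed, were not counted to genes. The labels say both "daily" and every 4 days, and the latter was used.

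Genes with more than 4 reads in any mouse (17464) were fitted with edgeR 4.0.16 (R 4.3.3), TMM scaling, 9 groups in 1 model and quasi-likelihood tests, with Benjamini-Hochberg adjustment within each comparison and calls at 0.05. SEs are the absolute log2 fold change divided by the square root of F. Groups came from the dose labels, mice of a group were treated as separate replicates, and replicate numbers follow deposit order. No 2 libraries were identical. DESeq2 1.42.0, other scalings, filters, thinning and leaving out each mouse were tried. Exact permutation tests used 252 arrangements, and ratios to Ptprc had 0.5 reads added. The fit was tested on simulated data.

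The members and gene lists were chosen with earlier results of these data known. Named genes were the 8 members, the 10 most alike genes, up to 4 genes of each list (largest change among those called at 30 µg/kg, or a defining role) and Cyp1a1. Cell type markers were named by the same rule. 1 further B cell marker was left out of that list's counts and sums and is not reported here. Mpeg1, albumin, Nfya, Nfyc, Zbtb46, Cd83 and Lag3 were named after their values were seen. Symbols were matched for 37607 of 39179 identifiers. Exon lengths and positions came from GENCODE M21, a later release than that counted, and promoter sequences from RefSeq on GRCm38.p6, where no window was used for H2-Ab1, Ciita and Cd74.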

Additional observations from a re-analysis of the deposited data

Results flagged for a closer look

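Each member was examined in each of the 9 groups for a mouse whose gap to its nearest group mate took up more of the group's range than Dixon's 95% critical value for 5 samples (0.71). Of 72 such groups 5 held 1. The rate of about 1 in 20 by chance holds for independent, normally distributed values. The values here were CPM without log transformation, of genes that moved together within mice, so that rate does not apply directly. All 5 were the highest mouse of their group. H2-Eb1 was 41.8 CPM in 0.3 µg/kg replicate 2, against 6.82 to 16.9 CPM in the other 4 mice. Ciita was 2.55 CPM in that same mouse, against 0.217 to 0.683 CPM. Ciita was also 3.02 CPM in 1 µg/kg replicate 4, against 0.685 to 1.31 CPM. Cd74 was 236 CPM in 3 µg/kg replicate 1, against 56.6 to 105 CPM. Ctss was 77.7 CPM in 0.01 µg/kg replicate 5, against 21.9 to 37.3 CPM, and this mouse was the 1 with the high Ptprc and Cyp1a1 values.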

How the results depend on the processing

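All 8 members kept their direction at 1, 3, 10 and 30 µg/kg under every alternative run, and all 8 stayed called at 30 µg/kg under each. The alternatives at 1 and 3 µg/kg for single members, and the comparisons of 30 with 3 and of 10 with 1 µg/kg, were added after seeing the data. Leaving out 1 mouse at a time gave 0 to 5 members higher at 1 µg/kg, 6 to 8 at 3, 6 to 8 at 10 and 8 at 30 µg/kg, and 7 to 8 over any dose. It gave 0 higher at the 4 lowest doses, 0 lower at any dose and 0 at any step between neighbouring doses. At 1 µg/kg DESeq2, a fit of the 2 groups alone and adjustment over all doses together gave 5, and thinning to the smallest library gave 3. At 10 µg/kg raw totals gave 8, and a depth covariate, thinning or adjustment over all doses gave 6. The Ctss ratio to Ptprc turned from -0.12 to 0.035 with Csf1r and to 0.51 with the macrophage list as the reference, and the cause was not tested. Of the 10 most alike genes 8 were shared with the Spearman ranking and 4 with the ranking by deviations from group means. No paired analysis was possible because replicate numbers only follow deposit order. Ciita, at 4 to 82 reads per library, and Ifng were limited by depth.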
